A study of Mus musculus with 6 samples.

Results

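Small nucleolar RNAs (snoRNAs) were examined on 6 mouse gene arrays that set Hmox1f/f PdgfraCre mice against Hmox1f/f mice on high-fat diet (HFD). A gene was taken as a member when its probeset carried a single symbol starting with Snord or Snora and a number, and of several such probesets of a gene the brightest, by its average on the 6 arrays, stood for it. This gave 51 of the 19938 genes measured, 31 of the C/D box class (Snord) and 20 of the H/ACA box class (Snora). In Hmox1f/f PdgfraCre material 41 of the 51 had a lower mean than in Hmox1f/f material, 9 a higher mean and 1 the same mean, while 49.3% of all genes had a lower mean. No member passed an adjusted p of 0.05, and neither did any of the 11024 genes tested.

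SnoRNAs are short non-coding RNAs of the nucleolus, the compartment in which ribosomal RNA (rRNA) is made. Those of the C/D box class pair with rRNA and guide the methyltransferase fibrillarin to the sugar to be methylated, and those of the H/ACA box class guide dyskerin to the uridine to be turned into pseudouridine. A few of either class do not guide a modification but are needed to cut the rRNA precursor. Most mammalian snoRNAs are encoded in introns of host genes, many of them genes of ribosomal proteins or of non-coding transcripts with no other known product, and are released by trimming of the excised intron.

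Both groups carry the floxed Hmox1 allele, whose loxP sites flank exon 2, and were C57BL/6 J males per the study's methods. The Hmox1f/f PdgfraCre mice carry in addition a Cre under the promoter of Pdgfra, a receptor gene of adipose precursors (APs), and the controls carry no Cre, so an effect of Cre itself and one of losing Hmox1, the gene of heme oxygenase-1, cannot be told apart. Mice of both groups had 8 weeks of HFD from an age of 6 weeks. There were 3 arrays of Hmox1f/f PdgfraCre (replicates 1 to 3) and 3 of Hmox1f/f (replicates 4 to 6), every one with RNA from the perigonadal visceral fat (viWAT) of 2 pooled mice. The labels name the material both AP cells and viWAT, with lysis after bead purification. The paper took high Pdgfra with low CD68 and AdipoQ as the sign of enriched APs. On these arrays Adipoq stood at log2 intensities of 12.74 to 13.10, Cd68 at 12.36 to 13.09 and Pdgfra at 10.05 to 10.36. Levels of different probesets are not amounts, but adipocyte and macrophage signal was strong on every array. The material is therefore not treated here as purified APs.

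Hmox1 itself stood at log2 intensities of 11.25, 11.36 and 10.74 with Cre and 11.90, 11.63 and 12.32 without, a difference of -0.83 ± 0.23 (SE) with an adjusted p of 0.266 in limma. All 3 arrays with Cre lay below all 3 controls, and which exons the probeset covers is not given in the sources used here. Of the marker lists, all 17 macrophage genes found were lower with Cre (16 of 17 with a further quantile normalization or with each array centred on its median) and 12 of them had an unadjusted p under 0.05, with a mean level of 10.38 to 10.85 on the arrays with Cre and 11.05 to 11.12 on the controls. All 12 mature adipocyte genes tested were higher (6 at p under 0.05, mean level of the 13 found 11.81 to 11.91 against 11.54 to 11.68), as were all 8 endothelial genes (5 at p under 0.05, 9.74 to 9.94 against 9.25 to 9.63). The 11 AP markers found were at 9.86 to 10.02 with Cre and 9.90 to 10.12 without, with 1 lower at p under 0.05. Of 7 lymphocyte genes found 1 passed the filter on low values, at -0.07. Among the 11024 genes tested 57.4% had a lower mean with Cre. At an unadjusted p under 0.05, 12.8% of them were lower and 3.03% higher. The mean level of 9 epididymal and spermatid genes was 6.12 to 7.70 with Cre and 6.52 to 9.62 without, highest on control array 6. The part of these markers in the snoRNA values was not tested, and in bulk material fewer cells of a type cannot be told apart from less RNA per cell.

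One of the sequence boxes that name the C/D class can be seen in the 5′ part of Snord33, one of the snoRNAs of the Rpl13a gene. This part is shown because it overlaps an annotated microRNA hairpin and is thereby held in the sequence tables used here (RefSeq, GRCm38.p6, chr7:45126918-45126945, the strand being the minus strand of the hairpin).
Snord33, 5′ part: agcuugUGAUGAgacaucucccacucau
The capitals mark the C box, UGAUGA, which starts at base 7 and gives the C/D class the first letter of its name. TGATGA was searched on both strands with no other motif. It stood once in this stretch, and not on the opposite strand, and was held on the transcript strand by 0.603% of the 32851 windows of 28 bases after the annotated gene starts in the same tables, and on either strand by 361 of them. The match is a description of the letters. By the annotation C/D members had a median length of 68 bases (45 to 148) and H/ACA members of 125 bases (61 to 205).

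The host genes of the 6 tested members with the smallest p among those lower with Cre are of interest because transcripts of many snoRNA hosts begin with a run of pyrimidines. The starts of 5 of these hosts were in the tables (RefSeq, GRCm38.p6), and each line gives 15 bases before the start in lower case and the first 15 bases of the transcript in capitals.
Rpl39 (host of Snora69), chrX:37085208-37085237, minus strand: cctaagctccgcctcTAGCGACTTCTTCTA
Snhg1 (host of Snord22), chr19:8723472-8723501, plus strand: gttgttcttgtcggcCTCATTTTTCCTTGT
Rpl23 (host of Snora21), chr11:97782425-97782454, minus strand: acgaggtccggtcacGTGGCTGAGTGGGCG
Snhg12 (host of Snora16a), chr4:132308663-132308692, plus strand: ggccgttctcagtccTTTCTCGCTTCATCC
Rpl27a (host of Snora3), chr7:109519180-109519209, plus strand: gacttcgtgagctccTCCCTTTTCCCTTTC
Pyrimidines made up 100% of the first 15 bases of Rpl27a, 86.7% of those of Snhg1 and of Snhg12, 66.7% of those of Rpl39 and 33.3% of those of Rpl23. Over the 31 hosts with a start in the tables the median was 60%, and over all 27025 genes it was 46.7%. The share at an annotated start depends on where the annotation places it, and the arrays did not measure start sites.

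**Figure D1:**
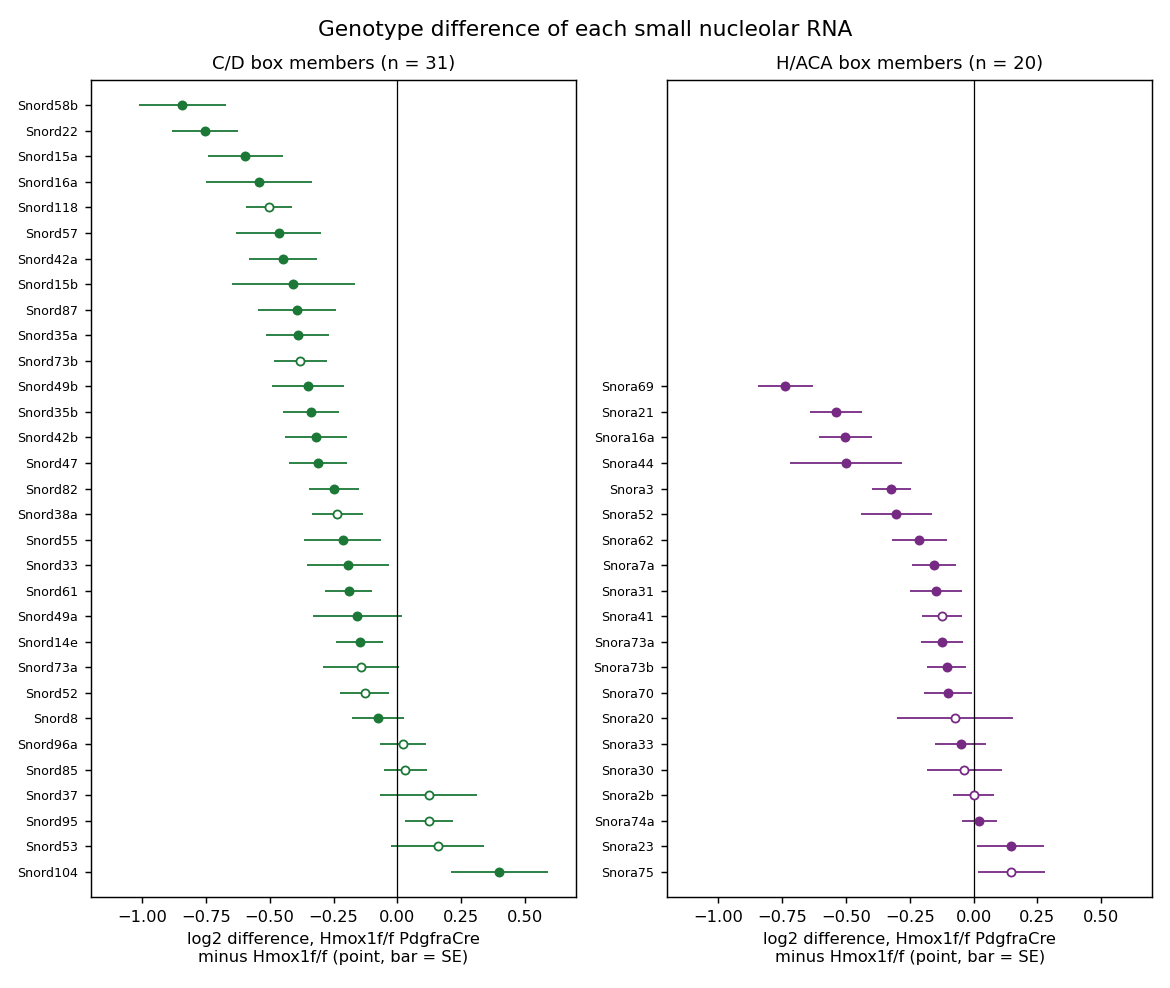
Difference in log2 intensity, Hmox1f/f PdgfraCre minus Hmox1f/f, for the 31 C/D box and 20 H/ACA box members (point, estimate; bar, SE; n = 3 arrays per genotype); filled points passed the filter on low values and open points did not. In both panels most points lie left of 0, from -0.84 for Snord58b to 0.40 for Snord104.

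The C/D box members had a median difference of -0.25, with 25 of 31 lower, and the H/ACA box members a median of -0.12, with 16 of 20 lower. The median of all genes was 0.00. At an unadjusted p under 0.05, 19 of the 51 members (37.3%) were lower and 0 higher, where 7.50% of all genes were lower and 2.19% higher at that p (9.69% in all). With each array centred on its median 12 members were lower and 1 higher, where 3.65% of all genes were lower, and with a further quantile normalization 13 were lower and 1 higher, where 5.23% of all genes were lower. The higher one was Snord104 both times. The 19 comprised 15 of 31 C/D members (48.4%) and 4 of 20 H/ACA members (20%). The difference between both classes was not tested, since members share hosts and are not replicates. All 3 arrays with Cre lay below all 3 controls in 23 of the 51 members, 16 C/D and 7 H/ACA, and in 13.0% of all genes. All 3 lay above in 0 members and in 4.39% of all genes.

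The members brighter than a mean log2 intensity of 7 held most of these differences. Of the 35 such members 32 were lower, with a median of -0.30, and the same median over the 10955 genes this bright was -0.03. The 20 C/D members among them had a median of -0.33 and the 15 H/ACA members of -0.16. Of the 16 members at or below 7, 9 were lower and 6 higher, with a median of -0.05. Members passed the filter on low values when at least 3 arrays lay above 7. In all, 36 did and 15 did not. Snora21, Snord35b and Snord58b passed it through their control arrays alone, and 28 members lay above 7 on all 6 arrays.

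**Figure D2:**
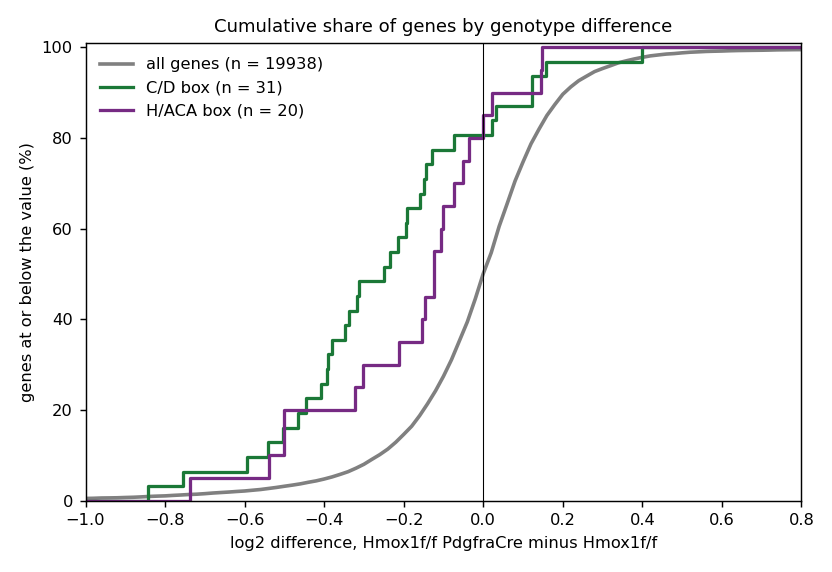
Share of genes (%) with a log2 difference, Hmox1f/f PdgfraCre minus Hmox1f/f, at or below the value on the horizontal axis, for C/D box members (n = 31), H/ACA box members (n = 20) and all 19938 genes. At 0 the members' curves stand near 80% or above and that of all genes near 50%.

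Among the snoRNAs known for cleavage of the rRNA precursor, Snord22 had the largest difference. This RNA is needed to make the RNA of the small ribosomal subunit and lies in Snhg1, a non-coding host. It stood at 10.85, 10.95 and 10.61 with Cre and at 11.40, 11.53 and 11.75 without. The groups did not overlap, and the difference of -0.75 ± 0.13 (SE, n = 3 per genotype) is a 1.69-fold lower intensity (limma, adjusted p = 0.266).

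Snord118, which acts on the RNAs of the large subunit and is the only member that lies inside no other gene, was dim, at 6.13, 5.93 and 5.98 with Cre and 6.63, 6.46 and 6.46 without. It did not pass the filter, and its difference was -0.50 ± 0.09 with no overlap between groups. The remaining 4 members of this list were closer to 0. Snora62, of the gene of the ribosomal protein Rpsa, was at -0.21 ± 0.11, and Snord14e, of the gene of the chaperone Hspa8, at -0.15 ± 0.09. Snora73a and Snora73b share the host Snhg3 and were at -0.12 ± 0.08 and -0.11 ± 0.07. Of the 12 snoRNAs listed 6 were members, and all 6 had a lower mean with Cre, where 49.3% of all genes did. Snord22 and Snord118 had an unadjusted p under 0.05, where 7.50% of all genes were lower at that p. Others of the list were measured only in probesets that carry several symbols and were not members. Snord14a, named with Rps13, was higher with Cre at 0.09. Snord14c and Snord14d, named together with Hspa8, were at -0.08 in their brightest probeset. The main cleavage snoRNA, U3, carries a symbol outside the naming rule (Rnu3a) and was at -0.17 ± 0.10.

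Of the H/ACA box members Snora69, encoded in the ribosomal protein gene Rpl39, had the smallest p of all members. It stood at 7.16, 6.93 and 6.95 with Cre and at 7.59, 7.78 and 7.88 without, a difference of -0.74 ± 0.11 (adjusted p = 0.266). The groups were apart by more than their SDs, 0.13 with Cre and 0.15 without. Snora21, encoded in the ribosomal protein gene Rpl23, was at 6.88, 6.93 and 6.61 against 7.37, 7.38 and 7.29, a difference of -0.54 ± 0.10 (adjusted p = 0.266). Its 3 control values lay within an SD of 0.05, and all 3 arrays with Cre were below the filter's log2 intensity of 7.

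Snora16a was at 9.11, 9.32 and 8.97 with Cre and at 9.65, 9.64 and 9.62 without, a difference of -0.50 ± 0.10 (adjusted p = 0.266). Its neighbour Snora44, in the same host Snhg12, was at 7.90, 8.07 and 7.31 against 8.51, 8.23 and 8.04. This is a like difference of -0.50, but with an SE of 0.22 and overlapping groups. Snora3, of the ribosomal protein gene Rpl27a, was at 8.19, 8.06 and 8.10 against 8.52, 8.39 and 8.41, a difference of -0.32 ± 0.08 with no overlap (adjusted p = 0.266). Snora52, of the gene of the ribosomal stalk protein Rplp2, was at -0.30 ± 0.14, again without overlap.

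Snord58b, encoded in the ribosomal protein gene Rpl17, had the largest difference of all 51, -0.84 ± 0.17 or 1.79-fold lower with Cre (adjusted p = 0.266). It stood at 6.57, 6.78 and 6.61 with Cre and at 7.13, 7.61 and 7.75 without, so the controls spread more (SD 0.33) than the arrays with Cre (SD 0.11). Snord58b lay above the filter's log2 intensity of 7 on 0 arrays with Cre and on 3 controls, so it was tested through its controls alone. A further probeset of Snord58b gave -0.86. The 2 probesets of Snora21 gave -0.54 and -0.50, those of Snora3 both -0.32, and those of Snora30 and of Snord118 held identical values.

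**Figure D3:**
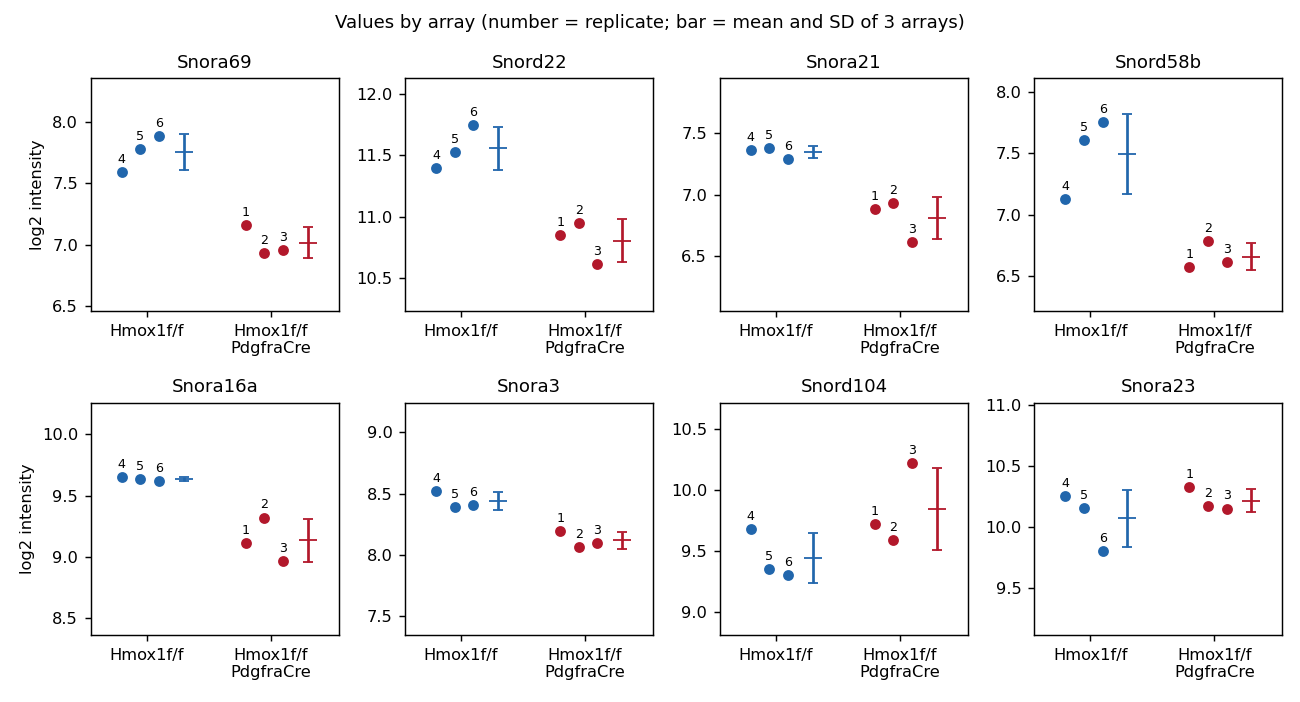
Log2 intensity on each array for 8 members, the 6 tested members with the smallest p among those lower with Cre and Snord104 and Snora23, the tested members with the smallest p among those higher; numbers are replicates, bars the mean and SD of 3 arrays, and all panels span the same range. The groups are apart in the first 6 panels and overlap for Snord104 and Snora23. Snora21 and Snord58b passed the filter on low values through their control arrays alone.

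Snord55, Snord82 and Snord49b were the brightest C/D probesets after Snord22. Snord55 was at 10.69, 10.65 and 10.20 with Cre and at 10.87, 10.62 and 10.69 without, a difference of -0.21 ± 0.15 with overlap. Snord82 lies in Ncl, the gene of nucleolin, a main protein of the nucleolus, and was at 10.36, 10.45 and 10.39 against 10.46, 10.75 and 10.73. This is a small difference of -0.25 ± 0.10 with barely separate groups. Snord49b was at -0.35 ± 0.14, also without overlap.

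Snord16a, of the ribosomal protein gene Rpl4, was at 9.53, 9.61 and 8.85 with Cre and at 9.93, 9.74 and 9.93 without. Its difference was -0.54 ± 0.21 (adjusted p = 0.294), with array 3 far below the other 2 arrays with Cre. Snord47 lies inside Gas5, a non-coding host of many C/D snoRNAs, by coordinates. It stood at 9.39, 9.59 and 9.21 against 9.67, 9.81 and 9.65, a difference of -0.31 ± 0.11 (adjusted p = 0.284) with no overlap. Of the Rpl13a snoRNAs, a set known from work on lipid-induced cell stress, Snord35a was at 8.52, 8.81 and 8.36 against 8.98, 8.94 and 8.95, a difference of -0.39 ± 0.12. The groups did not overlap. Snord33 was at 9.72, 9.82 and 9.26 against 9.95, 9.72 and 9.73, a difference of -0.19 ± 0.16, and its groups overlapped.

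Snord104 went the other way and had the highest difference of the members, 0.40 ± 0.19 (adjusted p = 0.350). It was at 9.72, 9.59 and 10.22 with Cre and at 9.68, 9.35 and 9.30 without. Array 3 was above all others, and array 2 lay below control array 4. Snora23, of the gene of the nuclear import protein Ipo7, was at 10.32, 10.17 and 10.15 against 10.25, 10.16 and 9.81, a difference of 0.15 ± 0.13. Snora74a, of the non-coding host Snhg4, was at 0.02 ± 0.07. These were the only 3 of the 36 tested members with a higher mean with Cre. The 6 higher members below the filter ranged up to 0.16 for Snord53, and Snora2b had the same mean in both genotypes.

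The other members at an unadjusted p under 0.05, named after their values were seen, were all of the C/D class. They were Snord15a at -0.59 ± 0.15, Snord57 at -0.46 ± 0.17, Snord42a at -0.45 ± 0.13, Snord87 at -0.39 ± 0.15, Snord73b at -0.38 ± 0.10, Snord35b at -0.34 ± 0.11 and Snord42b at -0.32 ± 0.12. In each of the 7 the arrays with Cre lay below all controls. Their adjusted p ran from 0.266 to 0.300 in limma, except for Snord73b, which did not pass the filter. Snord35b passed the filter through its control arrays alone.

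The arrays of a genotype did not share the differences evenly. As a mean over the 31 C/D members of each array's deviation from the member's mean, arrays 1 to 3 with Cre stood at -0.12, -0.05 and -0.21 and control arrays 4 to 6 at 0.16, 0.10 and 0.12. For the 20 H/ACA members the values were -0.07, -0.09 and -0.12 against 0.17, 0.07 and 0.03. Array 3 held the lowest value of 22 of the 51 members, and control array 4 the highest of 22. The 17 macrophage markers stood at -0.27, 0.01 and -0.46 against 0.27, 0.20 and 0.26 on the same arrays, so array 3 was lowest for them too, while array 2 was at their mean. All genes together lay between -0.03 and 0.03. Without array 3, 13 of the 51 members were lower at an unadjusted p under 0.05, where 6.59% of all genes were, and 43 had a lower mean. Without array 2 the counts were 19, where 7.98% of all genes were lower at that p, and 39.

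**Figure D4:**
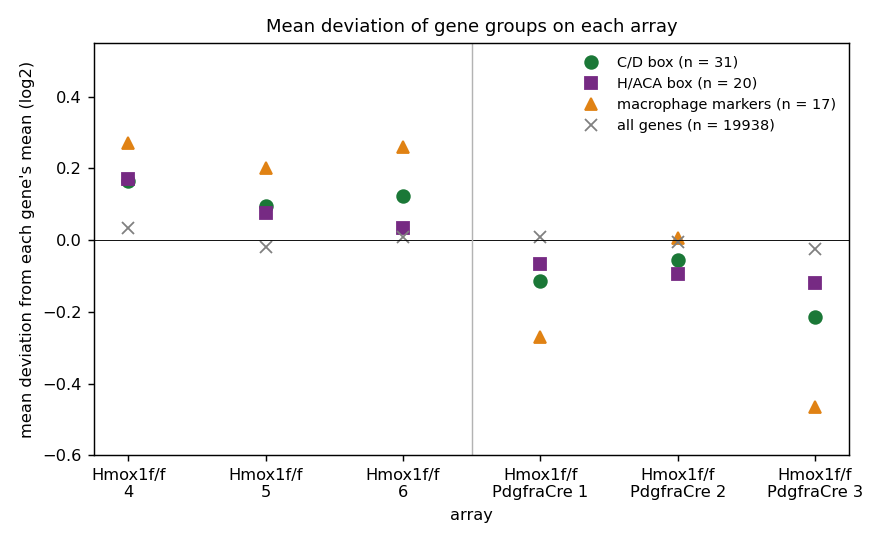
Mean deviation of each array from the gene's mean over all 6 arrays (log2) for C/D box members (n = 31), H/ACA box members (n = 20), macrophage markers (n = 17) and all 19938 genes. Members of both classes lie above 0 on the 3 Hmox1f/f arrays and below 0 on the 3 Hmox1f/f PdgfraCre arrays, and macrophage markers lie far below 0 on arrays 1 and 3 with Cre and near 0 on array 2.

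Of the 51 members 50 lay inside another gene by RefSeq coordinates, without regard to strand, and 10 pairs of members shared a host. Host kinds were sorted by gene symbol after the values were seen, and only symbols starting with Rpl or Rps were taken as ribosomal protein genes. All 21 members in genes so named had a lower mean with Cre, with a median of -0.32, where 49.3% of all genes had a lower mean. Of these 21 members 11 were lower at an unadjusted p under 0.05, where 7.50% of all genes were. The 8 in Snhg genes or Gas5 had a median of -0.35, with 7 lower and 4 at that p. The 21 in other genes had a median of -0.07, with 12 lower, 8 higher and 3 at that p. All genes with other symbols were counted here, whatever their product. Among them are Rack1, with Snord95 at 0.12 ± 0.09 and Snord96a at 0.02 ± 0.09, and 2410006H16Rik, with Snord49a at -0.16 ± 0.17 and Snord49b at -0.35 ± 0.14. All 21 members in ribosomal protein genes stayed lower with a further quantile normalization and with centring, and 10 and 9 of them had that p. The probesets of members in other genes were also dimmer, with a median log2 intensity of 6.58. It was 7.45 for members in ribosomal protein genes and 9.09 for those in Snhg genes or Gas5. The part of this brightness in the difference was not tested.

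A host gene of its own was measured for 27 members, in 23 hosts. For 23 further members inside a gene it was not. Snora69, Snord22, Snord58b and Snora16a are among these and so are missing from the comparison. The hosts lay closer to 0 than the 27 members did, from -0.23 to 0.23 with a median of -0.07, against a median of -0.15 for these members. Of the 23 hosts 0 had an unadjusted p under 0.05, where 15.8% of all genes tested did. In 19 of the 27 pairs the member had a lower difference than its host. In the 9 pairs whose member had an unadjusted p under 0.05 this held in 9, but those members were picked for being low. For Snora21 at -0.54 the host Rpl23 was at 0.04 ± 0.07, and for Snord16a at -0.54 the host Rpl4 was at 0.03 ± 0.07. For Snora3 at -0.32 Rpl27a was at -0.16 ± 0.07, and for Snord82 at -0.25 Ncl was at 0.08 ± 0.17. Across the 27 pairs Pearson's r of both differences was 0.30 and Spearman's rho 0.22, over pairs that share arrays and in part hosts. A probe inside a snoRNA also lies in the host's intron, so signal from the mature snoRNA and from its precursor cannot be told apart on these arrays.

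**Figure D5:**
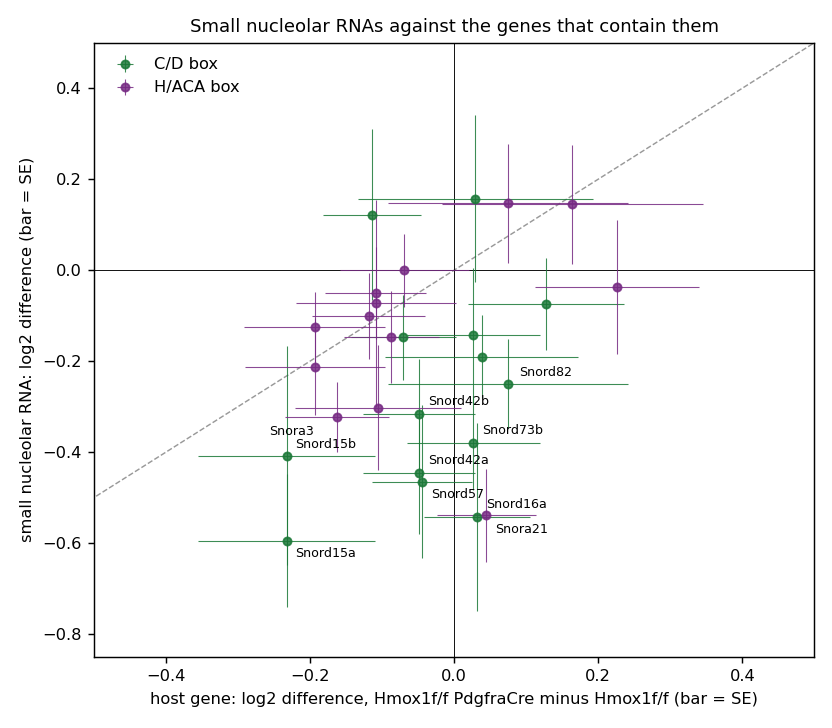
Log2 difference, Hmox1f/f PdgfraCre minus Hmox1f/f, of 27 snoRNAs (vertical axis) against that of the 23 genes that contain them (horizontal axis); bars are SEs, the dashed line marks equal differences, and the named points are the 9 members at an unadjusted p under 0.05 and Snord15b. Hosts stay between -0.23 and 0.23, while members reach -0.59, and 19 points lie below the line.

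Where a host held several members, these did not always share a value. In Rps3, a ribosomal protein gene at -0.23 ± 0.12, Snord15a was at 7.43, 7.45 and 6.98 with Cre and at 7.78, 7.88 and 7.99 without, with no overlap. Snord15b of the same gene was at 9.40, 9.22 and 8.48 against 9.52, 9.27 and 9.54, a difference of -0.41 ± 0.24 with overlap. In Ncl, Snord82 was at -0.25 and Snora75, an H/ACA member, at 0.15 ± 0.13. In Rpl23a, at -0.05 ± 0.08, Snord42a and Snord42b were at -0.45 and -0.32, and in Rps3a1, at 0.03 ± 0.09, Snord73a and Snord73b were at -0.14 ± 0.15 and -0.38 ± 0.10.

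The proteins that bind the snoRNAs differed less. Of the C/D core proteins the methyltransferase fibrillarin (Fbl) was at -0.19 ± 0.09, Snu13 at -0.16 ± 0.07, Nop56 at -0.04 ± 0.07 and Nop58 at 0.10 ± 0.16. Of the H/ACA core proteins Nhp2 was at -0.19 ± 0.09, Gar1 at -0.11 ± 0.09, Nop10 at -0.09 ± 0.09 and the pseudouridine synthase dyskerin (Dkc1) at 0.00 ± 0.18. None of these 8 had an unadjusted p under 0.05, where 15.8% of the 11024 genes tested did (12.8% lower and 3.03% higher).

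Of 15 tested genes of snoRNP assembly 2 were lower at that p, where 12.8% of all genes tested were lower. Pih1d1 was at -0.26 ± 0.09 and Ruvbl1 at -0.20 ± 0.08, both parts of the chaperone machinery for these particles. Under either other scaling of the arrays 0 of the 15 were lower. There 8.43% of all genes tested were lower with a further quantile normalization and 6.22% with each array centred on its median. Of 22 tested genes of a list of known snoRNA hosts 2 were lower, Rpl7a at -0.20 ± 0.07 and Rcc1 at -0.23 ± 0.08. In that list 0 were lower and 1 higher with each array centred on its median, and 2 lower and 1 higher with a further quantile normalization. Of 46 tested genes of the small subunit processome and rRNA processing 5 were lower and 1 higher. Among all genes tested 12.8% were lower at that p and 3.03% higher. Bop1 at -0.26 ± 0.07 and Pes1 at -0.28 ± 0.10, which act together in making the large subunit, were among the 5 with Nop16, Rrp1 and Nip7, and Nol6 was the higher one at 0.18 ± 0.07. With each array centred on its median 1 of the 46 was lower and 1 higher. All 11 RNA polymerase I genes tested had a lower mean (8 of 11 with centring), with a median of -0.06. Among all genes tested 57.4% had a lower mean, and the median was -0.03. Of the 11 genes 0 had an unadjusted p under 0.05.

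Other small RNAs on the arrays, sorted by RefSeq type after the values were seen, differed among themselves. The 297 microRNA genes had a median difference of 0.07 and were mostly dim, with a median log2 intensity of 5.13. At an unadjusted p under 0.05, 2 of them were lower and 5 higher, where 7.50% of all genes were lower and 2.19% higher. The 53 microRNA genes with a mean above 7 had a median difference of 0.15. The 3 small Cajal body RNAs measured, which guide changes in spliceosomal RNAs, were Scarna13 at -0.28 ± 0.12, Scarna17 at -0.25 ± 0.17 and Scarna8 at 0.02 ± 0.12. All 6 genes of type small nuclear RNA had a lower mean (5 of 6 with centring), with a median of -0.15, Rnu12 of the minor spliceosome being at -0.25 ± 0.09 and Rn7sk at -0.04 ± 0.06. The RNA of RNase MRP (Rmrp) was at -0.15 ± 0.15 and that of telomerase (Terc) at -0.03 ± 0.09. Of 61 cytosolic ribosomal protein genes 51 were lower, with a median of -0.12, where 49.3% of all genes had a lower mean.

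A further 41 probesets carried a Snord or Snora symbol together with other symbols and were not members. Snora34, whose probeset also names a microRNA, had the lowest difference among the brightest probesets of each such set of symbols, -0.83, with 8.85, 8.83 and 8.34 with Cre and 9.34, 9.54 and 9.64 without. Snora24, named with its host Snhg8, was at -0.53 and Snora28, named with Eif5, at -0.41. The Rpl13a snoRNAs Snord32a and Snord34, each named with Rpl13a, were at -0.06 and -0.10. The Snord116 group of the imprinted Prader-Willi region appeared only among these, its brightest probeset at 4.32 to 4.70 on all arrays, with a difference of 0.17. By the brightest probeset of their symbols, Snora19, Snord14a, Snora43 and Snord7 were also higher with Cre, at 0.23, 0.09, 0.07 and 0.05. All other such sets of symbols had a lower mean.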

How the data were processed

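Total RNA of 6 pools was extracted with an RNeasy mini kit, and 200 ng per pool were amplified and labelled with biotin for Affymetrix mouse gene arrays. Silica columns of this kind retain short RNAs poorly, and the yield of snoRNAs was not measured. The authors deposited 1 intensity per probeset and array, in whole numbers from 8 to 20701, made with RMA in Affymetrix Expression Console 1.1 per the submitters' processing notes. RMA forces a common distribution on the arrays and hides shifts of all genes at once. Log2 was taken of the deposited intensity values.

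Of 35556 probesets 21789 carried 1 gene symbol, 1621 several and 12146 none. Of the first, 21698 matched the RefSeq gene table by Entrez number. The probeset with the highest mean was kept per gene. Genotypes were compared with limma 3.58.1 in R 4.3.3 (lmFit and eBayes, two-sided, all 6 arrays, no covariate). The Benjamini-Hochberg adjustment ran over the 11024 genes with log2 above 7 in at least 3 arrays. Unadjusted p under 0.05 serves only to describe counts. Nothing in the labels gives a batch. The p-values measure the spread between pools, and the number of arrays limits the precision. Hosts were found as RefSeq genes whose coordinates contain the snoRNA. The fit was checked on simulated data. Python 3.11.15 and matplotlib 3.10.9 made the figures.

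The members and the 15 gene lists were chosen with earlier results of these data known. Named members were the brightest 8 C/D and 6 H/ACA, the 6 lower and up to 6 higher tested members with the smallest p, and the Rpl13a and cleavage snoRNAs, 22 in all. Others were chosen after their values were seen. Alternatives were no filter, a filter at 6, the methods' filter on variability, further quantile normalization, median centring, trend and robust moderation, array weights, the mean of probesets and leaving out each array. Counts over all 51 members were added after seeing the data.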

Additional observations from a re-analysis of the deposited data

How the results depend on the processing

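The count of 0 members past an adjusted p of 0.05 in limma was the same under the 14 alternatives, as was the count of 0 over all genes tested. Of the 36 tested members 17 had an unadjusted p under 0.05, all lower, where 12.8% of all genes tested were lower at that p and 15.8% passed it in all. Among the 17 are Snora21, Snord35b and Snord58b, which passed the filter through their controls alone. Their low values with Cre were thus tied to their entry, and 0 members passed through arrays with Cre alone. That count of 17 was 11 with a further quantile normalization (8.43% of all genes tested lower) and 11 with median centring (6.22% lower), 1 of the 11 being higher each time. It ranged from 7 without control array 5 (9.59% lower) to 18 without Hmox1f/f PdgfraCre array 2 (13.7% lower), 1 of the 18 being higher, and was 11 without array 1 (7.38%), 11 without array 3 (11.0%), 9 without control array 4 (7.93%), 1 of them higher, and 9 without control array 6 (7.31%). Snora21, Snord35b and Snord58b pass the filter through the 3 controls alone, so leaving out any control drops them from these counts by construction (33 members tested). Over all 51 members, with no filter, the count was 19 and ranged from 13 to 20 when an array was left out, up to 2 of them higher. All 19 kept their direction each time, and 10 of them kept an unadjusted p under 0.05, namely Snora16a, Snora21, Snora3, Snora69, Snord118, Snord15a, Snord22, Snord42a, Snord58b and Snord73b.

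The median of tested C/D box members, -0.34, was -0.25 with no filter and ran from -0.43 without array 2 to -0.23 without array 3. That of tested H/ACA box members, -0.16, was -0.50 under the methods' filter, which keeps the most variable genes. That of all C/D box members, -0.25, was -0.18 with array weights and ran from -0.33 without control array 4 to -0.22 without array 3. Snora74a, at 0.02, ran from -0.0036 without array 3 to 0.0496 without array 1 when an array was left out, and was 0.05 with a further quantile normalization and 0.07 with median centring. The other named members kept their sign and their side of the adjusted threshold in all alternatives in which they were fitted.

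Among the calls over all genes tested at an unadjusted p under 0.05, 80.8% were lower with Cre, 58.2% with a further quantile normalization and 48.3% with median centring. No paired analysis was possible because the groups share no replicate numbers. Pools of 2 mice on 3 arrays per genotype limit what can be seen, and members near the background intensity have compressed differences.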
